A study of Homo sapiens with 6 samples.

Results

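The regions described here are the wide H3K27Ac peaks of the mtNPM1 knockout list, meaning the peaks called after transfection of the sgNpm1A guide that lay on chromosomes 1 to 22 or X and spanned 3000 bp or more. There were 3872 of them among 317029 sgNpm1A H3K27Ac peaks (1.22%), and they held 17.1 Mb, or 8.78% of the length under all peaks of that list. The regions were chosen by their width in the sgNpm1A list, so their widths and the comparison of wide peaks with narrower ones are given as a description, with no test. The member nearest the limit from above was 3000 bp wide with a fold enrichment of 3.17, and the next were 3001 bp wide with fold enrichments of 3.67 and 3.30. The nearest peaks left out were 2999 bp wide, with fold enrichments of 3.00, 2.98 and 3.21.

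OCI-AML3 is an established human acute myeloid leukemia line that carries mutant NPM1 (mtNPM1) together with DNMT3A and NRAS mutations. The cells were transfected with Cas9 and either a control guide (sgNeg) or a guide against mutant NPM1 (sgNpm1A), and were collected after 3 days by the sample labels. H3K27Ac and H3K4me3 were then mapped by ChIP followed by Tn5 tagmentation of the captured chromatin. Each guide and each mark had 1 library, so the values below compare libraries and have no replicate error, and an interval given for a share covers counting over peaks or genes only.

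H3K27Ac is acetylation of histone H3 at lysine 27, a mark of active promoters and enhancers, and H3K4me3 is trimethylation of lysine 4, found at active gene starts. Broad domains of H3K27Ac are typical of super-enhancers and of highly active promoters, which in myeloid leukemia cells include genes of cell identity. In ChIP data, broad enriched regions are also known over satellite repeats and over sequences whose copies a reference genome holds incompletely.

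The reference sequence under 8 of these peaks is shown, because several members of highest enrichment and some of the widest held repeated sequence. Each line gives 300 bases at the centre of a member, plus strand, GRCh37, and capitals mark bases inside 31-base words that occur more than once in the genome. The first 4 are members of high fold enrichment, the next 2 the widest on chromosomes 21 and 5, then the widest multi-copy member of HYDIN and the widest chromosome 1 member that no sgNeg peak overlapped:
Pericentromere of chromosome 6, no gene (chr6:58777772-58778071): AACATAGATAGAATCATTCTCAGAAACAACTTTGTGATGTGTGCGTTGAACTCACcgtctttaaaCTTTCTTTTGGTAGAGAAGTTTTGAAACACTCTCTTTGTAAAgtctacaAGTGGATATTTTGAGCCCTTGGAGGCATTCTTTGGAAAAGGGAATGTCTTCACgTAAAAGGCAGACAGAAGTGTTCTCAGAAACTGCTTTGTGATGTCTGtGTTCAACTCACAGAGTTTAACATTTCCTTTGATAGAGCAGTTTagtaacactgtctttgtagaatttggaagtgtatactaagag
ROCK1P1 pseudogene (chr18:109438-109737): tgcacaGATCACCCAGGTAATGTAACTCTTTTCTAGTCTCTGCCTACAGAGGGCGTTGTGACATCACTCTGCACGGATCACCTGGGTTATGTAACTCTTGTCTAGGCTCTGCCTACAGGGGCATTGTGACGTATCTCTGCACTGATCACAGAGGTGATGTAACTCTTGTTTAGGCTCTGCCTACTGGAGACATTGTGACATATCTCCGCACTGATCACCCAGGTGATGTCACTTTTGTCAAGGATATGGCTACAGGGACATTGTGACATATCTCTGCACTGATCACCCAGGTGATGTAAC
Chromosome 7 near the long arm end, in a noncoding gene (chr7:155751032-155751331): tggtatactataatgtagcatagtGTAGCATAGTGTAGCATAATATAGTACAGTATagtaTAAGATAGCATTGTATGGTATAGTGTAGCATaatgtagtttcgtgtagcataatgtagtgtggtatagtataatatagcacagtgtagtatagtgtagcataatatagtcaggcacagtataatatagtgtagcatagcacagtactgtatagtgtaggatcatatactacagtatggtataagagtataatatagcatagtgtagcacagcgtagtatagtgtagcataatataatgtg
Nuclear copy of mitochondrial DNA, MTCO1P12 pseudogene (chr1:567232-567531): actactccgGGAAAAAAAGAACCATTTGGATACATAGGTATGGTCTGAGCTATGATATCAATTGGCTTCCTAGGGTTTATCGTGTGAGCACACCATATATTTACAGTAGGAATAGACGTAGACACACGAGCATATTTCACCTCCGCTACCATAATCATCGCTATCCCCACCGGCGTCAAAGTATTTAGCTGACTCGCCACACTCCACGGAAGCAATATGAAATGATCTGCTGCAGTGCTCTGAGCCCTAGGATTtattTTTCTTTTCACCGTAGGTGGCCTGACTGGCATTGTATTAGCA
Short arm of chromosome 21, no gene (chr21:10793506-10793805): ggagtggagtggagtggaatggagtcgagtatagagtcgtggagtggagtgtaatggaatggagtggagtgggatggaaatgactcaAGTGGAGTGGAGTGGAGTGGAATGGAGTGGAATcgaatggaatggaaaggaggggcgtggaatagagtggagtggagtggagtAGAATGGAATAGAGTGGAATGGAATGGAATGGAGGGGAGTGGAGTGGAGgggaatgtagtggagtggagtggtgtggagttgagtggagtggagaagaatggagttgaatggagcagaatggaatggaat
Chromosome 5 long arm, no gene (chr5:98545856-98546155): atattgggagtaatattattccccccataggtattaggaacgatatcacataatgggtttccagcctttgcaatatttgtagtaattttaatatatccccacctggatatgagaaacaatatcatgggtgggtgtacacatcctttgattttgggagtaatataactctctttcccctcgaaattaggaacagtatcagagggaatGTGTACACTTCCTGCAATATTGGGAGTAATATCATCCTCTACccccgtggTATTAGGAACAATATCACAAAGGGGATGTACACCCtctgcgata
HYDIN intron (chr16:71045062-71045361): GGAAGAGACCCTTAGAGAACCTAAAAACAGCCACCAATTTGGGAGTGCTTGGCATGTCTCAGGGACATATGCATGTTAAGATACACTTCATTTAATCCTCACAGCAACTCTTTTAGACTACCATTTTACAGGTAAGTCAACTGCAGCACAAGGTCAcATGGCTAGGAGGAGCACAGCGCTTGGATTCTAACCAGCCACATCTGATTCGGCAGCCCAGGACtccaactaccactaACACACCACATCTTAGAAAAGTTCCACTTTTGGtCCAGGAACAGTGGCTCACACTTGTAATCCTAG
LMX1A intron (chr1:165253084-165253383): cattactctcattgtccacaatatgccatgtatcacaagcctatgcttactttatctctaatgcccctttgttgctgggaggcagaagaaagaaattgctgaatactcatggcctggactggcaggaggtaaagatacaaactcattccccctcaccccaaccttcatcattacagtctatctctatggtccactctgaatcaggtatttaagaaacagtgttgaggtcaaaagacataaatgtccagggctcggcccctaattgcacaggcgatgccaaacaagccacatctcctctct

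The words of the chromosome 18 window had a median of 5 genomic copies and up to 159, and the chromosome 21 window was built of GGAAT-like units with 13 copies of that 5-base word on either strand. The HYDIN window had a median of 2 copies per word over 94.7% of its bases in capitals, and the LMX1A window held no repeated word.

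The sgNpm1A list held 0.401 times as many wide peaks as the sgNeg list, and the gap grew with width. Wide sgNeg peaks numbered 9657 of 327666 (2.95%), covered 54.5 Mb and took up 24.7% of the length under that list, although the lists were of similar size in all. There were 0.614 members for each sgNeg peak between 3000 and 3500 bp, 0.269 between 5000 and 7000 bp and 0.102 at 10000 bp or more, where 83 members stood against 814 sgNeg peaks. The median width was 3804.5 bp in the members and 4422 bp in the wide sgNeg peaks. Median fold enrichment over background, as the peak caller gave it within each library, was 3.30 in the members and 3.74 in the wide sgNeg peaks, and 174 members (4.49%) against 3394 wide sgNeg peaks (35.1%) had a q-value under 1e-05.

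**Figure D1:**
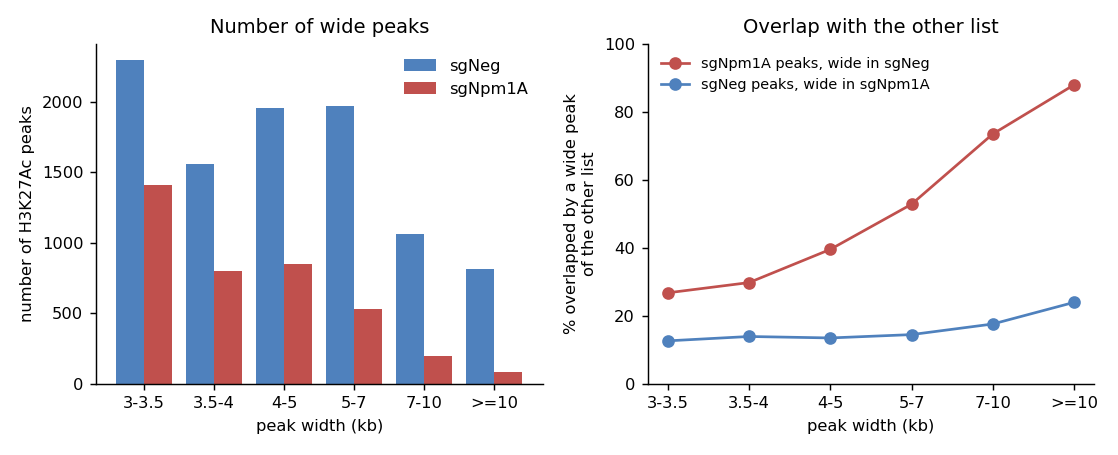
Left, number of H3K27Ac peaks of the sgNeg (blue) and sgNpm1A (red) lists in 6 width classes (kb). Right, percent of the peaks in each class overlapped by at least 1 bp by a peak of 3000 bp or more of the other list; it rises from 26.8% to 88.0% for the sgNpm1A peaks and from 12.6% to 23.96% for the sgNeg peaks.

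Nearly every member lay where the control list also had a peak, but a minority lay where the control peak was wide too. A sgNeg peak of 3000 bp or more overlapped 1452 of the 3872 members (37.5%, 95% Wilson interval 35.99 to 39.04). Such a peak overlapped 15.0% of sgNpm1A peaks of 2000 to 2999 bp and 4.82% of sgNpm1A peaks of any width. A longer span raises this share by itself. Only narrower sgNeg peaks overlapped 2397 members (61.9%), and no sgNeg peak overlapped 23 (0.594%). Any sgNeg peak overlapped 99.4% of members, 96.5% of sgNpm1A peaks of 2000 to 2999 bp and 51.4% of sgNpm1A peaks of any width, shares that the longer span of a wide peak moves upward by itself. A median of 67.0% of a member's length was under sgNeg peaks, and 2689 members (69.4%) spanned 2 or more separate sgNeg peaks, up to 9. The lists had different floors, with narrowest peaks of 140 bp in sgNpm1A and 110 bp in sgNeg and lowest folds of 2.66 and 2.54. Whether this difference affected the number, joining or splitting of wide peaks was not tested. In the 2397 members without a wide counterpart, the widest sgNeg peak had a median width of 1422 bp, and sgNeg peaks covered a median of 52.6% of the member.

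Seen from the control list, overlap was far lower. Of the 9657 wide sgNeg peaks, 1438 (14.9%) were overlapped by a wide sgNpm1A peak, 6033 (62.5%) by a narrower one and 2186 (22.6%) by none. The members therefore shared 37.5% of their own number but 14.9% of the wide control peaks. Where a member and a wide sgNeg peak met, the sgNeg peak was the wider in 898 of 1452 members (61.8%).

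Many of the members of highest fold enrichment were tandem repeats or lay next to assembly gaps, and few were at gene starts. Of the 20 members with a fold enrichment of 8 or more, 10 lay within 100 kb of an assembly gap, against 2.97% of all members, and 1 was at a protein-coding start. In the sgNeg list, 257 of 298 wide peaks of that enrichment (86.2%) were at a protein-coding start. Wide peaks of 10-fold enrichment or more numbered 11 in the sgNpm1A list and 76 in the sgNeg list.

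The highest member, at chr6:58776271-58779573, had 65.6-fold enrichment in the sgNpm1A library and 53.3-fold in the sgNeg library. It ended 593 bp from the centromere gap, overlapped no annotated gene, and matched itself best at a shift of 340 bp (53.2% of bases), about the length of a dimer of alpha satellite, the tandem repeat of human centromeres. Members at the same best shift stood at chr7:61967414-61971213, with 22.7-fold against 18.7-fold, and at chr19:27731805-27739316, with 12.5-fold against 14.3-fold. These lay 256 bp and 22 bp from an assembly gap. All 3 were high in both libraries, and the sgNpm1A value was the higher on chromosomes 6 and 7 and the lower on chromosome 19.

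The second highest member covered part of ROCK1P1, a pseudogene of the kinase gene ROCK1, at chr18:106778-112398. It had 28.9-fold enrichment in the sgNpm1A library and 20.99-fold in the sgNeg library, and 72.5% of its 31-base words occurred more than once in the genome. The third, at chr7:155748754-155753609, had 24.1-fold against 18.8-fold and only 4.14% repeated words. It did match itself at 42.3% of bases at a shift of 10 bp, against a median best match of 29.3% over all members. Both of these members lay outside pericentromeres, and in both the sgNpm1A value was the higher.

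The fifth, at chr1:564468-570295, held a nuclear insertion of mitochondrial DNA, with the pseudogenes MTND1P23, MTND2P28, MTCO1P12, MTCO2P12, MTCO3P12, MTATP6P1 and MTATP8P1, named for their mitochondrial source genes. Its enrichment was 15.5-fold in the sgNpm1A library and 14.9-fold in the sgNeg library, with widths of 5828 and 5833 bp. The mitochondrial genome contained 63.2% of its 31-base words. H3K4me3 was enriched 197-fold over a 5833 bp peak there after sgNpm1A and up to 42.0-fold after sgNeg, in coordinates of GRCh38. The remaining 4 of the 10 highest had 10.9-fold to 12.0-fold enrichment. Of these, chr1:142535492-142541105 and chr10:42383494-42388107 and chr10:42394072-42397220 held 55.8, 47.9 and 47.3 copies per kb of GGAAT or its complement, the unit of human satellite repeats, against a median of 1.65 over all members. In that order, their enrichment was 12.0-fold against 8.63-fold in sgNeg, 11.4-fold against 13.6-fold and 10.9-fold against 12.1-fold. Both chromosome 10 members were thus lower in the sgNpm1A library. The last of the 10, chr18:77340841-77343913, was single-copy sequence in a noncoding gene, with 11.1-fold against 8.26-fold.

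Tandem repeats were few among the members but made up most of the 10 of highest fold enrichment. With a limit set after the values were seen (a match of 50% or more of bases at a shift of 2 to 2000 bp), 42 members (1.08%) were tandem, against 37 wide sgNeg peaks (0.383%). They made up 7 of the 10 members of highest fold and 3 of the 10 highest wide sgNeg peaks. At 6-fold or more, 12 members were tandem and 24 were not, against 11 and 1075 wide sgNeg peaks. None was at a protein-coding start, 18 lay within 100 kb of an assembly gap, and the median fold was 4.10 against 3.30 in the other members. All 42 overlapped a sgNeg peak, which was wide for 25 (59.5%). Tandem members inside genes were found in HIVEP3, SLC1A7, FAIM2, PLIN4, BFSP2, GPR141, DLGAP2 and ARHGAP39. In PLIN4, the gene of a lipid droplet coat protein with a long repeated domain, the best shift was 198 bp and the enrichment was 3.67-fold against 3.04-fold.

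**Figure D2:**
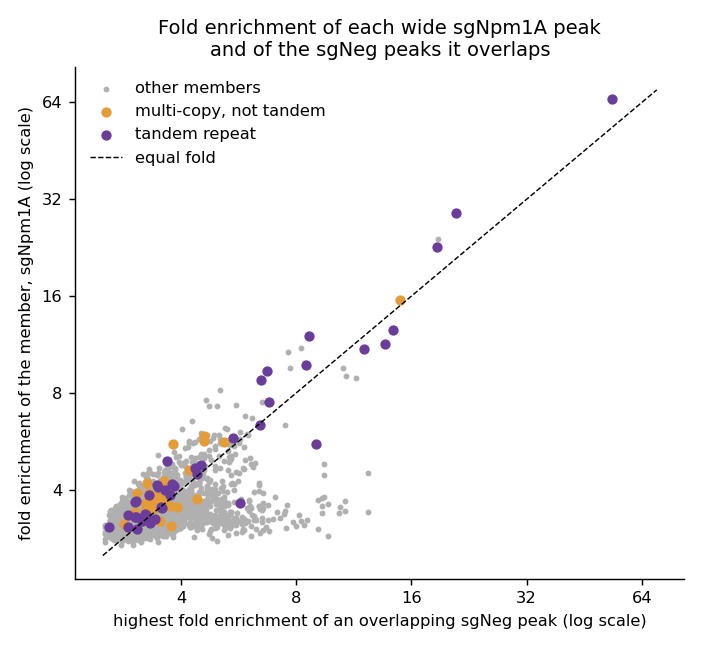
Fold enrichment of each of the 3849 members that overlap a sgNeg peak (vertical) against the highest fold enrichment of the sgNeg peaks it overlaps (horizontal), both on log scales. Purple points are tandem repeats, orange points other multi-copy members and grey points the rest; above 10-fold most points are purple or orange and lie near the dashed line of equal values.

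The widest member was also satellite sequence. It ran for 39707 bp at chr21:10773803-10813509, on the short arm of chromosome 21, and held 2574 copies of GGAAT or its complement (64.8 per kb). Its enrichment was 4.12-fold, and 8 sgNeg peaks of 782 to 6512 bp, with folds up to 3.85, covered 87.6% of it. The second widest, 34386 bp at chr5:98528813-98563198, overlapped no gene, had 3.52-fold enrichment and matched itself best at a shift of 75 bp (40.9% of bases). The third, 28069 bp at chr8:108576522-108604590, had 4.11-fold enrichment and a best shift of 76 bp (41.2%). Both of these were also split in the sgNeg list, into 8 and 6 peaks that covered 86.3% and 89.2% of them.

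The other 12 of the 15 widest members, from 15527 to 20572 bp, mostly lay in protein-coding genes. Of them 3 fell in or at a start of PDE4DIP, which encodes the centrosomal and Golgi protein myomegalin, with folds of 4.73, 4.63 and 4.38. The sgNeg list had a single peak of 51554 bp and 4.34-fold over the first 2 of these. Members of 20077 bp at SLC6A18, a kidney amino acid transporter gene, of 16517 bp at CDK18, of 16430 bp over HSF1, the heat shock transcription factor gene, and DGAT1, and of 15675 bp at ZNF595 reached protein-coding starts. At ZNF595 the sgNeg peak was both wider and higher, with 22022 bp and 9.44-fold against 15675 bp and 4.80-fold. At CDK18 the sgNeg list had 6 peaks, none above 4453 bp. A member of 16757 bp lay over GPR20, a receptor gene, and members on chromosome 8 at chr8:143076473-143093696 and chromosome 2 at chr2:91790863-91809202 lay in no protein-coding gene.

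Multi-copy sequence was rare among the members. A member was called multi-copy where at least 50% of its 31-base words occurred more than once in GRCh37, and 36 members (0.930%) and 35 wide sgNeg peaks (0.362%) met this. HYDIN, a gene of motile cilia with a duplicated copy elsewhere in the genome, held 18 of the 36, with folds of 3.08 to 4.21. The widest of these spanned 9830 bp at chr16:71040297-71050126 with 81.1% repeated words and 3.83-fold enrichment, where the sgNeg list had a peak of 10090 bp and 3.53-fold. A second, 9637 bp at chr16:70990459-71000095, reached a HYDIN start and met 6 sgNeg peaks, none above 2734 bp. The short arm of chromosome 21 held 6 multi-copy members, including one of 6425 bp with 93.0% repeated words and 5.87-fold against 4.59-fold, and chromosome 4 near 190 Mb held 3. All 36 overlapped a sgNeg peak and 22 (61.1%) a wide one.

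By symbol, few members fell in repeated gene families. Members overlapped records of LINC genes in 153 cases (3.95%, against 4.00% of wide sgNeg peaks), ZNF genes in 36 (0.930% against 1.24%), mucin (MUC) genes in 7 (0.181%) against 5 wide sgNeg peaks (0.0518%), olfactory receptor genes in 4 (0.103%) against 4 (0.0414%) and NBPF genes in 2 (0.0517%) against 1 (0.0104%). No member overlapped a GOLGA6, GOLGA8, TBC1D3, USP17L, POTE or HLA- record. Repeat classes such as SINE and LINE were not assigned.

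The 23 members without any sgNeg peak were small and weak. Their median width was 3395 bp and their median fold 2.95, close to the median of 2.94 over all sgNpm1A peaks, and none was at a protein-coding start. The widest, of 4280 bp with 2.95-fold enrichment, lay in NKD1, an inhibitor of Wnt signalling, at chr16:50673669-50677948. Next were an intron of COL22A1 (4152 bp, 2.95-fold), an intron of LMX1A (4111 bp, 3.18-fold), a developmental transcription factor gene, and an intron of SLC25A48 (4070 bp, 3.01-fold). A member of 3985 bp and 2.93-fold covered SNORD115-21, SNORD115-22 and SNORD115-23, small nucleolar RNA genes inside SNHG14.

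The members were crowded on a few chromosome arms. Chromosome 8 had the most per Mb (5.68) and held 832 members (21.5%), chromosome 1 held 835 and chromosome 5 held 699, while chromosome X had none against 65 wide sgNeg peaks. Peaks of any width were also few on chromosome X. The sgNpm1A list had 2.93 per Mb on Xp and 2.72 on Xq, and the sgNeg list 10.5 and 6.70. The 6 arms with at least 160 sgNpm1A peaks of any width per Mb, a limit set after the values were seen, were 5p, 1q, 8q, 17q, 8p and 7q. They held 2791 members (72.1%, 70.6 to 73.5) on 15.8% of the sequenced length, against 32.9% of sgNpm1A peaks of any width and 33.8% of wide sgNeg peaks. The short arm of chromosome 5 stood highest, with 664 members (14.3 per Mb) against 482 wide sgNeg peaks. The long arm of the same chromosome had 35 members against 293 wide sgNeg peaks. Counts were 746 against 939 on 1q, 649 against 674 on 8q, 283 against 539 on 17q, 183 against 269 on 8p and 266 against 365 on 7q.

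The ratio of members to wide sgNeg peaks was 0.854 over these 6 arms (range 0.525 to 1.38) and 0.169 over the other 36. Apart from 21p, where 14 members stood against 12 wide sgNeg peaks on 1.43 Mb, no other arm exceeded 0.306. The ratio for peaks of any width did not differ in this way, at 0.970 and 0.966. The 6 arms were chosen by their sgNpm1A peaks of any width, so their density in that list follows from the choice. It was 182 to 310 per Mb, against a median of 95.1 on the other arms. Peaks of any width in the sgNeg list were also denser there, with 179 to 333 per Mb against a median of 98.5. Across 42 arms, members per Mb rose with sgNeg peaks of any width per Mb (Spearman's rho 0.844, a description over arms of the same libraries). OCI-AML3 is hyperdiploid with rearranged chromosomes. Copy number was not measured here, and its part in this pattern was not tested.

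**Figure D3:**
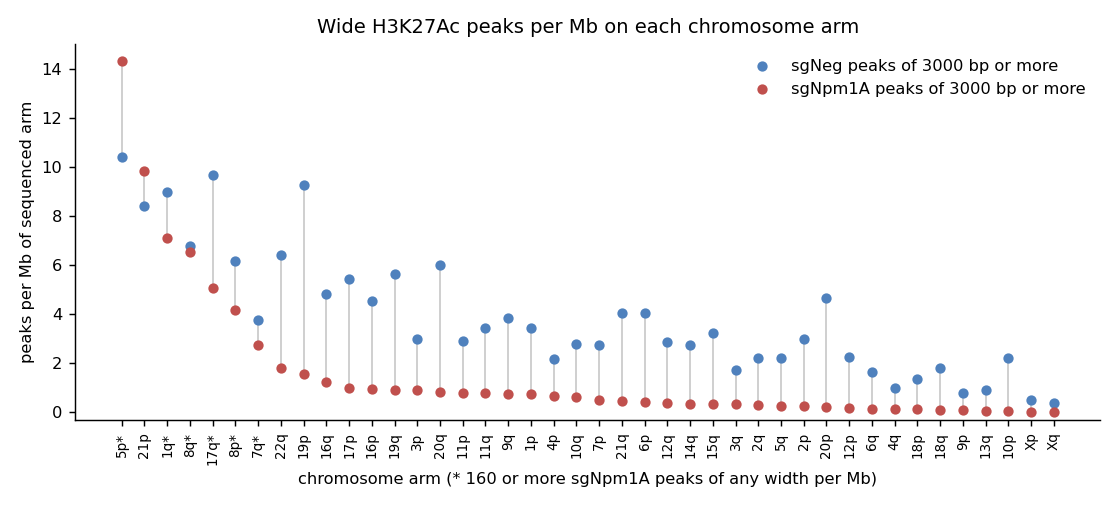
Wide H3K27Ac peaks per Mb of sequenced arm for the sgNpm1A list (red) and the sgNeg list (blue) on 42 chromosome arms, ordered by the sgNpm1A value; grey lines join both values and asterisks mark the 6 arms dense in sgNpm1A peaks. The red points exceed 2 per Mb only on those 6 arms and on 21p, whereas the blue points stay high on arms such as 19p and 17p.

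What became of the control's wide peaks also differed between arms. On the 6 dense arms, 32.7% of wide sgNeg peaks were wide in the sgNpm1A list and 6.15% had no sgNpm1A peak at all. On the other arms these shares were 5.78% and 31.1%. Among members the split was smaller, with 39.1% on the dense arms and 33.4% elsewhere overlapped by a wide sgNeg peak. Members of the dense arms had a median GC content of 50.9% and 23.5% of them reached a protein-coding start, while members elsewhere had 57.5% and 40.3%. Only 4 of the 36 multi-copy members were on the dense arms.

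Many members ran in long clusters, of which the largest were on dense arms. Joined at distances up to 50 kb, the 3872 members of all arms formed 1734 groups, of which 1128 were single members and 146 held 5 or more, with 1563 members in these. The largest spanned 1081 kb of 8q at chr8:142868551-143949880, with 84 members and 51 wide sgNeg peaks, over TSNARE1, ADGRB1, PSCA, SLURP1 and other genes. The second, at chr5:818468-1566835, had 68 members and 60 wide sgNeg peaks over TERT, the telomerase catalytic subunit gene, CLPTM1L, SLC6A3, SLC12A7 and BRD9. On 5p every 5 Mb interval up to 45 Mb held 15 to 205 members, and on the other side of the centromere the intervals from 50 to 70 Mb held none. Members were closer to chromosome ends, with 24.02% within 5 Mb of one, against 17.4% of wide sgNeg peaks and 10.9% of sgNpm1A peaks of any width. Of these 930 members, 205 lay in the first 5 Mb of 5p, a dense arm, so this pattern overlaps with the crowding on arms.

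A smaller share of the members than of the control's wide peaks was at promoters, mainly on the dense arms. A member was within 1 kb of a protein-coding transcript start in 1091 cases (28.2%, 26.8 to 29.6), against 40.6% of wide sgNeg peaks (39.6 to 41.6), 19.5% of sgNpm1A peaks of 2000 to 2999 bp and 8.29% of sgNpm1A peaks of any width. A further 17.5% touched an exon of a protein-coding gene away from a start, 18.8% lay in introns only, 12.5% in other genes and 22.99% in no gene. Wide sgNeg peaks had 11.8%, 18.4%, 13.1% and 16.1% in these places. The median distance to a protein-coding start was 10125 bp for members and 4668 bp for wide sgNeg peaks, and the median GC content was 52.7% and 51.0%. On the dense arms 23.5% of members (21.9 to 25.1) and 35.3% of wide sgNeg peaks (33.7 to 37.0) were at a start. On the other arms the shares were 40.3% (37.4 to 43.3) and 43.3% (42.1 to 44.6), and these intervals overlapped. Members with a wide counterpart were at a start in 38.98% of cases and those with only a narrower one in 21.9%. The share at a start was 24.1% of members and 37.5% of sgNeg peaks at 3000 to 3500 bp, and 49.4% and 52.3% at 10000 bp or more. At 7000 to 10000 bp the order was the other way, with 46% of members and 43.1% of sgNeg peaks. In every other class the share of members was the lower, with 29.2% against 39.3% at 4000 to 5000 bp and 33.8% against 42.2% at 5000 to 7000 bp.

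The genes that held the most members were long. CTNND2, a neuronal catenin gene of 933 kb on 5p, held 24 members against 6 wide sgNeg peaks. TRAPPC9, which encodes a vesicle tethering factor, held 20 against 17, PTPRN2, a phosphatase-family gene of secretory granules, 19 against 19, and TG, the thyroglobulin gene, 18 against 16. Members also outnumbered wide sgNeg peaks in COL22A1 (15 against 3), SDK2, an adhesion gene of synapses (15 against 4), KCNN3, a potassium channel gene (11 against 2), NFASC, the neurofascin gene (9 against 1), and RBFOX3, the gene of the neuronal marker NeuN (9 against 0). In TSNARE1 (15 against 19) and SEPTIN9 (13 against 18) the wide sgNeg peaks were more numerous. In all, members overlapped 1627 protein-coding genes and wide sgNeg peaks 5157, with 1068 genes in common, which is 65.6% of the former and 20.7% of the latter. At gene starts the numbers were 982 of 20090 genes (4.89%) with a member and 3983 (19.8%) with a wide sgNeg peak, with 605 in common.

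Regulators of the leukemia program had no member at a start. Of 13 genes whose chromatin the study discussed for these same libraries, a list that is therefore no independent evidence, 0 had a member at a start and 12 had a wide sgNeg peak. HOXA9, a homeobox factor of leukemic self-renewal, had sgNeg peaks of up to 51584 bp and up to 13.1-fold at its starts. Its sgNpm1A peaks there reached at most 468 bp and at most 3.08-fold. MEIS1, the partner of HOXA9, had 19181 bp against 306 bp, IRF8, a monocyte lineage factor, 42939 bp against 604 bp, and MYC, a growth regulator, 5402 bp against 759 bp. MYB and CEBPA, both regulators of hematopoiesis, had sgNeg peaks of 21514 and 15908 bp and no sgNpm1A peak. For MYC, which lies on a dense arm, the sgNpm1A peak was thus also far below the limit. Members did occur inside the records of SPI1, the gene of the myeloid factor PU.1 (1 member, 5028 bp, 3.52-fold against 5.95-fold in sgNeg), and of RXRA, a nuclear receptor gene (3 members of 3112 to 4747 bp, 3.01-fold to 3.43-fold). Over the 3 RXRA members, sgNeg peaks reached 13245, 24575 and 25452 bp, with up to 4.07-fold, 5.79-fold and 3.61-fold. Each RXRA member was thus narrower and lower than the sgNeg peak over it.

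Other lists gave the same count or nearly so. No member was at a start of 14 housekeeping genes, 9 of which had a wide sgNeg peak, or of 8 immediate early genes, 4 of which did. The closest was POLR2A, the gene of the largest RNA polymerase II subunit, with a sgNpm1A peak of 2923 bp against 2467 bp in sgNeg. An immediate early gene, ATF3, had 1 member in an intron (3179 bp, 3.02-fold). Of 10 myeloid genes 1 had a member, CSF1R, the macrophage colony-stimulating factor receptor gene, with 3210 bp and 3.04-fold against a sgNeg peak of 6316 bp and 3.34-fold, and 5 had a wide sgNeg peak. CSF3R, the granulocyte colony-stimulating factor receptor gene, had 2534 bp against 8337 bp. Of 9 genes of other lineages none had a wide peak in either list. As a check of the label, all 11 myeloid markers had a sgNeg peak at a start, with a median widest peak of 6304 bp, and 5 of 6 B cell, T cell and erythroid markers did, with a median of 248 bp. Lists of 8 to 14 genes are too short to be set apart from the share of 4.89% that had a member at a start over all protein-coding genes.

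**Figure D4:**
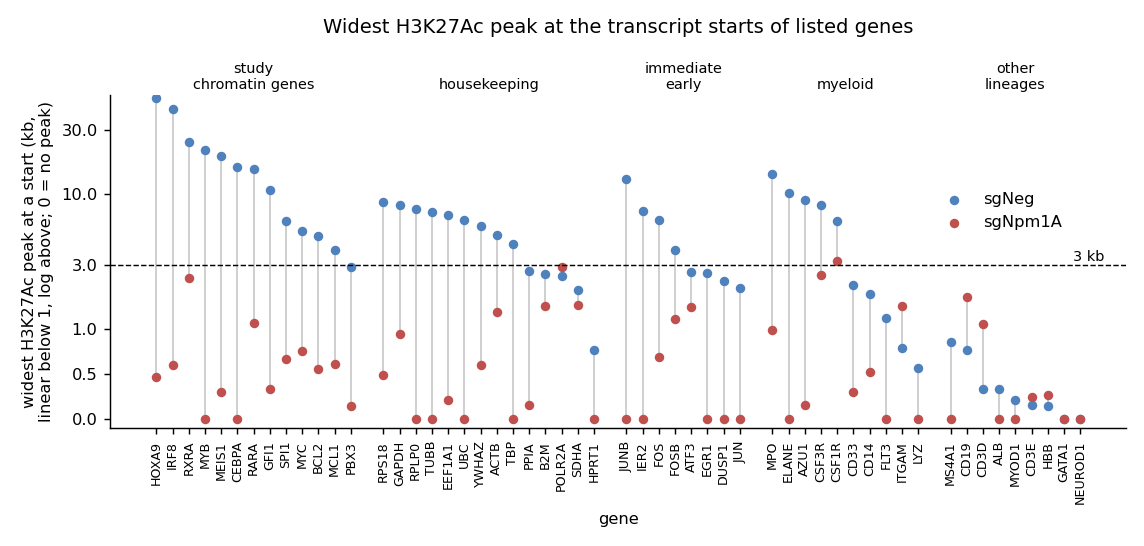
Width in kb of the widest H3K27Ac peak within 1 kb of any transcript start of each listed gene in the sgNeg (blue) and sgNpm1A (red) lists, on an axis that is linear below 1 kb and logarithmic above; 0 means no peak, and both points of GATA1 and NEUROD1 coincide at 0. Only CSF1R has a red point above the dashed 3 kb line, whereas 30 blue points lie above it.

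H3K4me3 came from separate libraries and gave a measure that did not choose the members. The submitters' names for the libraries of the 2 marks carry different tags with no stated meaning, so whether both marks came from the same cultures is not known. Of 951 genes with a member at a start that could be joined by name to GRCh38, 268 (28.2%, 25.4 to 31.1) had a sgNpm1A H3K4me3 peak at the start, against 6.56% of 18107 genes without a member and 7.63% of all 19058 genes. Genes with a wide peak only in the sgNeg H3K27Ac list had one in 4.89% of cases (158 of 3228). The share was 30.9% where the member had no wide sgNeg peak at the same gene start and 26.5% where it had. On the dense arms 40.7% of genes with a member (36.5 to 44.9) and 15.5% of genes without one had a sgNpm1A H3K4me3 peak, and on the other arms 13.2% (10.3 to 16.7) and 5.02%. In the sgNeg H3K4me3 list the shares were 87.0% with a member and 64.1% without (65.2% of all genes). That list was larger, with 353578 peaks against 106629 in the sgNpm1A H3K4me3 list, so the contrasts in the 2 lists cannot be set side by side.

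**Figure D5:**
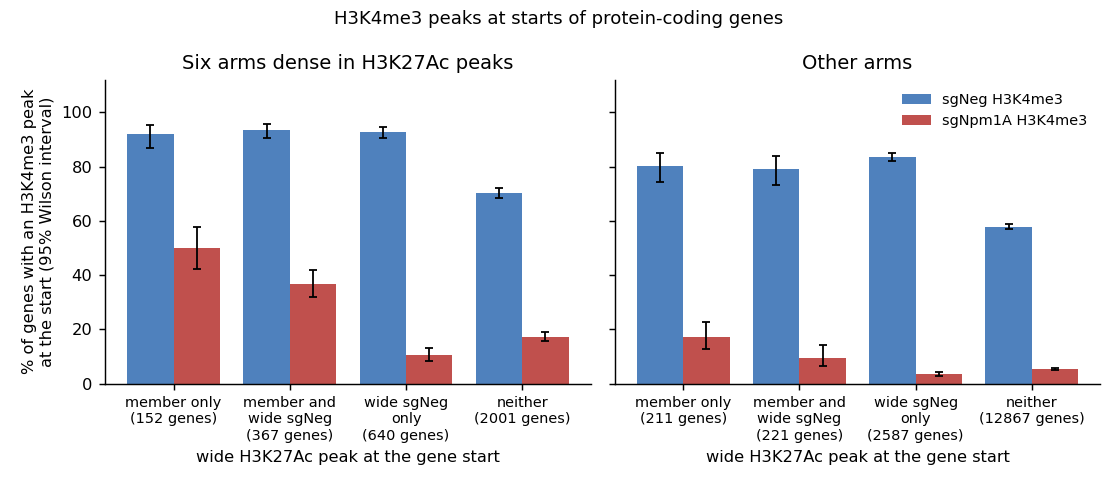
Percent of protein-coding genes with an H3K4me3 peak at a transcript start in the sgNeg (blue) and sgNpm1A (red) lists, by which H3K27Ac list has a peak of 3000 bp or more at that start, on the 6 dense arms (left) and the other arms (right); error bars are 95% Wilson intervals over genes. The red bars are higher for genes with a member, at 76 of 152 genes without a wide sgNeg peak and 36.8% of those with one on the dense arms, against 10.5% for genes with a wide sgNeg peak only.

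The width of H3K4me3 peaks followed the same arms. Peaks of 3000 bp or more were 224 of 106629 in the sgNpm1A H3K4me3 list and 131 of 353578 in the sgNeg H3K4me3 list. Of 224 sgNpm1A H3K4me3 peaks of 3000 bp or more, 198 (88.4%, 83.5 to 92.0) were on the 6 arms, as were 50.8% of sgNpm1A H3K4me3 peaks of any width. Of the 131 wide sgNeg H3K4me3 peaks, 68 (51.9%, 43.4 to 60.3) were on those arms, as were 44.4% of sgNeg H3K4me3 peaks of any width. HSF1, DGAT1 and GPR20 on 8q each had 1 wide sgNpm1A H3K4me3 peak, of 3469, 4908 and 6113 bp, where the sgNeg list had 7, 5 and 4 separate peaks of at most 594, 1220 and 1614 bp. SLC6A18 and SLC6A19 on 5p had 1 and 2 wide sgNpm1A H3K4me3 peaks, against 0 and 1 in sgNeg. The wide sgNpm1A H3K4me3 peaks of these genes lay over narrower sgNeg peaks, but in SLC6A19 a wide sgNeg peak of 3101 bp also lay over a sgNpm1A peak of 2427 bp.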

How the data were processed

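ChIP-seq peak lists of 4 OCI-AML3 libraries were analysed (H3K27Ac and H3K4me3 after sgNeg or sgNpm1A, 1 library each). Input libraries were not analysed here. The authors trimmed and aligned reads and called peaks, and the submitters' processing notes name Trimmomatic 0.33, Bowtie 1.1.2, MACS2 2.1.0 and the build hg38. The deposited lists give each peak's fold enrichment, a ratio to local background set by the authors' caller within each library, and −log10 p-values and q-values as the authors' caller wrote them. Read depth is unknown, so no interval for a single peak's value was possible. The H3K27Ac coordinates are GRCh37, since chromosome 1 peaks ran past its end in GRCh38, and the H3K4me3 coordinates are GRCh38. At genes, the 2 marks were therefore joined by name only (19058 genes). H3K4me3 peaks were placed on chromosome arms by their GRCh38 position. The boundary between arms was set from genes whose arm was known in GRCh37. For its ChIP-Seq the study's text gives a longer incubation than the 3 days of the labels.

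Peaks shared at least 1 bp to count as overlapping (Python 3.11.15, pandas 2.3.3, numpy 2.4.6, checked with bedtools 2.31.1 and on simulated intervals). Genes came from GENCODE 44 lifted to GRCh37, and a start was any protein-coding transcript start with 1 kb on either side. Exact 31-base words of each peak were counted on both strands of the whole GRCh37 assembly. Arm lengths leave out assembly gaps. No test was run, with 1 library per group, and shares carry 95% Wilson intervals.

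Regions named are the 15 widest, the 10 of highest fold, the 10 widest with no sgNeg peak, the 10 widest multi-copy members, 3 on either side of the limit, and members in listed genes. Genes holding most members, clusters, tandem members and dense arms were chosen after their values were seen. The members and gene lists were chosen with earlier results of these data known. 1 of the 15 widest members is not reported here.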

Additional observations from a re-analysis of the deposited data

How the results depend on the processing

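With 1 library per group no replicate could be left out. No paired analysis was possible because the result comes from no test. Of 39 alternatives, 7 left a result within its interval, or a count within 1.5 times, and 32 moved it; the cause was not tested beyond what each setting does by construction. The number of wide sgNpm1A peaks, 3872, became 11246, 1665 and 813 with limits of 2000, 4000 and 5000 bp and 12940 with peaks within 1 kb merged. The share with a wide sgNeg peak, 37.5%, stayed between 37.1% and 38.1% at the other width limits and became 32.7% with an overlap of at least 50%, 53.0% after merging and 34.2% with q-values under 0.01 in both lists. The share with any sgNeg peak, 99.4%, became 97.5%, 99.8% and 100% at 2000, 4000 and 5000 bp, 71.0% with 50% of the peak covered and 74.7% with q-values under 0.01. The share at a protein-coding start, 28.2%, became 22.9% and 41.1% with windows of 0 and 5 kb and 22.5%, 33.7% and 38.4% at the 3 width limits. The multi-copy share, 0.930%, became 2.30% and 0.542% at 20% and 80% of words, and 0.560%, 1.56% and 2.34% at the 3 width limits. Chromosome 8 kept the most per Mb throughout, with 19.7%, 23.5% and 26.9% of the peaks at the 3 width limits. For the share on dense arms, 72.1%, alternatives were added after seeing the data: 75.4% on the 9 arms with 140 or more sgNpm1A peaks per Mb, also those with 160 or more sgNeg peaks, 57.9% on the 4 arms with 200 or more, 64.5%, 76.9% and 79.2% at the 3 width limits and 75.8% with q-values under 0.01. Read depth is not given in the lists, and with 1 library for each guide and mark, guide and library cannot be told apart.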

Other observations

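Outside chromosomes 1 to 22 and X, the sgNpm1A list held 5 and the sgNeg list 4 H3K27Ac peaks of 3000 bp or more.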
